A study of Homo sapiens with 6 samples.

Results

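The genes described here are those whose symbol in the guide table is GPR followed by a number, the numbering given to proteins that resemble G protein-coupled receptors. The rule found 76 genes with 10 guides each, 760 guides of the 71626 in the table, which covers 7093 genes plus 100 guides named dummyguide, a term the labels leave undefined. All 760 guides passed the filter on library counts. Their abundance was read by sequencing in a knockout screen of HAP1, a leukaemia-derived human line with close to 1 copy of each chromosome. There were 6 samples, 2 each from the guide library, parental HAP1 and SETD2-mutant HAP1. SETD2 trimethylates H3K36, and the labels name 1 mutant genotype without a number of clones. Per the labels, each line received the guide virus at a multiplicity of infection of 0.7 and was then divided into replicates, which were grown under puromycin for 12 doublings. The replicates of a line therefore share a transduction, and the p-values reflect no more than how these samples differ. Guide counts do not read gene expression or the SETD2 genotype.

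G protein-coupled receptors cross the membrane several times and, when a ligand binds outside the cell, switch on heterotrimeric G proteins inside it. Many GPR-numbered members were recognised by sequence before any ligand was known, hence the name orphan receptors, and most are used in specialised cells such as neurons, sensory cells or leukocytes. Such genes are often treated in screens as genes whose loss costs a cultured cell little, so that their guides show how far guides drift without selection. The number in the symbol is not a proof of function, however. Of the 76 genes, 8 encode multi-pass proteins that are not classical receptors, among them GPR89B of the Golgi, GPR107 and GPR108 of the secretory pathway, and the lysosomal GPR137 group and GPR155. By groups set by hand, another 14 were counted as having a reported ligand, such as GPR183, which senses oxysterols. Of the rest, 4 sense protons, 3 were counted as signalling to Gs without an added ligand and 3 belong to the glutamate receptor class. The adhesion receptor group holds 1 gene (GPR124, now ADGRA2), and 43 are other class A members. A place among these 43 does not mean that no ligand or Gs signalling has been reported. The label orphan fits only part of the set, and the genes are called GPR genes here.

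Total counts ranged from 25082426 to 38428425 per sample. GPR guides made up 1.06% of all guides and were somewhat rarer in the library, with a median count of 380 in library replicate 1 and 347 in library replicate 2, against 466 and 421 over all guides. Their share of counts was 0.869% and 0.870% in the library. It was 0.990% and 1.00% with parental cells, and stood at 0.940% and 0.957% with SETD2-mutant cells. The share was thus higher in all 4 cell samples than in both library samples. Guides without a single count numbered 0 and 0 of 760 for the library, 1 and 0 for parental and 4 and 1 for SETD2-mutant cells.

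Most guides of GPR genes lay near 0. A change is the log2 ratio of a guide's scaled abundance to that in the library, with a negative value where cells carrying the guide became rarer. The median change of the 760 guides was 0.11 and 0.12 in the parental replicates and 0.089 and 0.059 in the SETD2-mutant replicates. Over all 71470 gene guides it was 0.0052 and 0.0016 in parental and 0.0097 and 0.011 in SETD2-mutant cells. The lower tail was where the sets differed most. Averaged over replicates, 62 GPR guides (8.16%) lay below −1 in parental cells against 14.8% of all guides, and 87 (11.4%) in SETD2-mutant cells against 17.1%. At the other end, 40 GPR guides (5.26%) lay above 1 in parental cells against 3.76% of all guides, and 41 (5.39%) in SETD2-mutant cells against 4.15%. Only 4 GPR guides (0.526%) lay below −2 in all 4 cell samples, where 4.05% of all guides did.

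These changes are relative to the other guides. The dummyguide guides had medians of 0.65 and 0.74 in the parental replicates and 0.87 and 0.92 in the SETD2-mutant replicates, above the GPR guides in all 4. When samples were scaled on the dummyguide totals, the median of all genes moved by −0.78 in parental and −0.92 in SETD2-mutant cells, and all 76 GPR genes stood below 0 in both lines. Their medians were then −0.71 and −0.88, beside −0.79 and −0.97 for all genes. A value near 0 below therefore means near the typical gene of the table, and signs of small values depend on that scale.

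For a whole gene, the edgeR log2 fold changes of its 10 guides were averaged, and the standard error (SE) is taken across those guides. In parental cells the 76 GPR genes ran from −0.93 to 0.70 around a median of 0.067, and 70 of them (92.1%) stood within 0.5 of zero, as did 80.5% of all 7090 genes. In SETD2-mutant cells they ran from −1.60 to 0.56 around 0.044, with 65 (85.5%) within 0.5 of zero against 75.2% of all genes. The medians of all genes were −0.014 and −0.0496. Between the lines, as SETD2-mutant against parental, GPR genes ran from −0.75 to 0.48 around −0.056, beside −0.038 for all genes, and 92.1% were within 0.5 of zero against 90.6%. The replicate medians were 0.074 and 0.056 in parental and 0.023 and 0.0096 in SETD2-mutant cells. The spread of GPR genes was narrower than that of all genes against the library, with an SD over genes of 0.29 against 0.78 for parental and 0.38 against 0.88 for SETD2-mutant cells. Between the lines the SDs were closer, 0.26 against 0.34.

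A gene was called where robust rank aggregation (RRA) of the edgeR quasi-likelihood guide ranks gave a Benjamini-Hochberg adjusted p below 0.05 over all 7090 genes. In parental against library 0 of 76 GPR genes were called depleted, where 9.90% of all genes were, and 0 enriched, where 1.11% were. At an unadjusted RRA p under 0.05 there were 0 for depletion and 6 for enrichment, against backgrounds of 12.1% and 9.38%. In SETD2-mutant against library 1 gene, GPR89B, was depleted (background 9.04%) and 0 were enriched (1.11%), with 1 and 7 at an unadjusted p under 0.05 (12.0% and 10.3%). Between the lines 0 were depleted (1.28%) and 0 enriched (1.03%), with 4 and 2 at an unadjusted p under 0.05 (7.53% and 6.84%). DESeq2 ranks in place of edgeR gave 0 and 0, then 1 and 0 (GPR89B again), and then 0 and 0.

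A second test reads the same genes differently. Limma on the mean log2 abundance of each gene, in which the spread among a gene's guides does not enter, called 13 GPR genes depleted and 21 enriched in parental cells (background 31.9% and 25.6%). It called 21 and 19 in SETD2-mutant cells (38.9% and 25.5%), and 20 and 7 between the lines (24.4% and 14.6%). Both SETD2-mutant samples lay below both parental samples for 29 GPR genes (38.2%, background 38.8%) and above them for 15 (19.7%, background 26.9%). For the other 32 the samples of the lines overlapped.

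GPR89B encodes an anion channel that helps keep the Golgi acidic, and it is not known as a hormone receptor. Its guides averaged −1.06 and −0.87 in the parental replicates and −1.72 and −1.58 in the SETD2-mutant replicates. All 4 values were below those of every other GPR gene's mean in the same sample, and the samples of the lines did not overlap. The edgeR change was −1.60 (SE 0.32, 10 of 10 guides down, adjusted p = 0.0365 by edgeR and RRA) in SETD2-mutant cells. In parental cells it was −0.93 (SE 0.196, 10 of 10 guides down), with an adjusted p of 1 and an unadjusted p of 0.181 by edgeR and RRA, while limma called it (adjusted p = 5.69e-05). The difference between the lines, −0.67 (SE 0.21, 8 of 10 guides down), was not called by edgeR and RRA (adjusted p = 0.547), and limma called it (adjusted p = 0.00152). A depletion in SETD2-mutant cells beyond that in parental cells is therefore called by one test and not by the other. The call against library was lost without library replicate 1 (adjusted p = 0.0848) and without library replicate 2 (0.0665), and with a rank share limit of 0.1 (0.407). Scaled on the dummyguide totals, GPR89B also missed the threshold (0.120), and the 1 GPR gene called was another, GPR182 (now ACKR5), counted here among the other class A members, at −1.23 on that scale (SE 0.150, adjusted p = 0.0184 by edgeR and RRA). On the scale used elsewhere GPR182 stood at −0.30 (SE 0.150, 6 of 10 guides down, adjusted p = 1).

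The guides of GPR89B differed widely in strength. Averaged over replicates they ran from −2.05 to −0.015 in parental and from −3.84 to −0.33 in SETD2-mutant cells. Guide 3 in the order of the table had 562 and 536 counts in the library, 136 and 119 in parental and 34 and 24 in SETD2-mutant cells. Guide 7, at the weak end, had 441 and 444 counts in the library, 481 and 374 in parental and 227 and 343 in SETD2-mutant cells. For 9 of the 10 guides the change was below 0 in all 4 cell samples. For 7 both SETD2-mutant samples were below both parental samples, as they were for 29.8% of all gene guides. GPR89B is described because it was called depleted, so guide counts in that direction follow in part from the choice. Without the guide farthest from the median, a summary chosen after the values were seen, the SETD2-mutant change was −1.35. GPR89B lies on chromosome 1, 147928420 to 148025934 in GRCh38, and a near-identical copy, GPR89A, lies at 145607988 to 145670650 on the same chromosome. The table holds 0 guides under the name GPR89A. Whether the GPR89B guides cut both copies was not tested, since the sequences of the guides were not analysed here. The 25 uncalled genes other than GPR genes that start within 5 Mb of GPR89B had a median of −0.33 for parental and −0.46 for SETD2-mutant cells, the lowest neighbourhood among the 76 genes in both. Relative to these medians GPR89B stood at −0.59 and −1.14.

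The other 7 proteins that are not classical receptors lay nearer to zero, and none was called by edgeR and RRA in any of the 3 comparisons. At an unadjusted RRA p under 0.05, only GPR89B of the 8 appeared. GPR107, a Golgi and endosome protein on chromosome 9 (130053906 to 130140164), averaged −0.027 and −0.18 in the parental replicates and −0.504 and −0.15 in the SETD2-mutant replicates. The lines overlapped. Its relative GPR108, known as an entry factor for adeno-associated virus vectors, averaged 0.077 and 0.073 in parental and −0.35 and −0.097 in SETD2-mutant cells. Between the lines it stood at −0.29 (SE 0.22), which limma called (adjusted p = 0.0262) and edgeR with RRA did not (0.886). It was −0.18 without SETD2-mutant replicate 1, −0.44 without SETD2-mutant replicate 2 and −0.12 as the median over its guides. GPR155, a lysosomal protein that binds cholesterol, stood at −0.36 in parental and −0.63 in SETD2-mutant cells, and GPR137C at 0.016 and 0.41. Of the 8, limma called 3 depleted and 0 enriched in parental cells (background 31.9% and 25.6%). It called 4 and 1 in SETD2-mutant cells (38.9% and 25.5%) and 4 and 1 between the lines (24.4% and 14.6%). Among these calls were GPR155 in both lines (adjusted p = 0.0104 and 0.000241 by limma) and GPR137C in SETD2-mutant cells (0.00195). The median of the 8 was −0.16 in parental, −0.23 in SETD2-mutant cells and −0.23 between the lines.

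Among class A members without a place in another group, 43 genes had medians of 0.0996 in parental, 0.084 in SETD2-mutant cells and −0.032 between the lines. GPR20 and GPR78, both orphans, had the highest parental means. GPR20 averaged 0.697 and 0.685 in the parental replicates and 0.23 and 0.055 in the SETD2-mutant replicates, so that the lines did not overlap. Its parental change was 0.70 (SE 0.31, 9 of 10 guides up) and was not called by edgeR and RRA (adjusted p = 0.181). Limma called it (adjusted p = 8.02e-05). The median over its guides was 0.42. One of its guides rose from 342 and 297 counts in the library to 2478 and 2135 in parental cells. GPR78 averaged 0.54 and 0.655 in parental and 0.22 and 0.12 in SETD2-mutant cells. GPR135 stood at 0.51 in parental (0.29 as the median over its guides) and 0.49 in SETD2-mutant cells. GPR26, a receptor of brain tissue, stood at 0.39 and 0.56. Limma called the parental changes of GPR78 (adjusted p = 4.85e-05), GPR135 (0.000236) and GPR26 (0.00121). On the dummyguide scale the parental values of GPR20, GPR78 and GPR135 turned to −0.079, −0.16 and −0.27.

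At the low end of class A, GPR75 averaged −0.61 and −0.44 in the parental replicates and −0.80 and −0.54 in the SETD2-mutant replicates. Its lines overlapped, and edgeR with RRA called it in neither line (adjusted p = 1 for parental and 0.531 for SETD2-mutant). Limma called it in both (adjusted p = 0.00261 and 0.000519). GPR61, an orphan receptor of the brain, averaged −0.094 and −0.22 in parental and −0.895 and −0.91 in SETD2-mutant cells. That gave it the lowest difference between the lines, −0.75 (SE 0.37, 8 of 10 guides down, adjusted p = 0.670 by edgeR and RRA). Without 1 guide the difference was −0.44. GPR22, an orphan found in heart and brain, was the highest between the lines, at 0.48 (SE 0.20, 7 of 10 guides up, adjusted p = 0.741). It averaged −0.23 and −0.31 in parental and 0.25 and 0.12 in SETD2-mutant cells, which did not overlap. These class A values were called by limma between the lines for GPR61 (adjusted p = 0.000189) and GPR22 (0.00175).

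In the glutamate receptor class, GPR158 and GPR179 stood out by the spread of their guides. GPR158, a glycine-binding receptor of neurons, averaged −0.65 and −0.64 in the parental replicates and −0.19 and −0.21 in the SETD2-mutant replicates. All 10 of its guides were below 0 in parental cells, where its change was −0.61 (SE 0.24, adjusted p = 1 by edgeR and RRA), which limma called (adjusted p = 0.000182). The median over its guides was −0.33, and without the farthest guide the mean was −0.39. GPR179, needed for signalling in retinal bipolar cells, had a SETD2-mutant change of −0.85 with an SE of 1.11. Its guides there ran from −10.7 to 1.27, and without the lowest guide the mean was 0.24. That guide had 0 and 0 counts in SETD2-mutant cells, so the size of its change is not measured. With a prior count of 2 it stood at −6.70. The limma change of the gene was −0.46, which limma called (adjusted p = 0.00204). The sign of the mean of GPR179 thus rested on 1 guide.

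Of the 14 genes with a reported ligand, 10 had a mean above 0 in parental and 10 in SETD2-mutant cells, with medians of 0.18 and 0.16. Of the 76 GPR genes, 46 and 40 were above 0, and of all 7090 genes 3430 and 3221. All 14 stood within 0.5 of zero in both lines. GPR143, the melanosome receptor mutated in ocular albinism, averaged 0.47 and 0.45 in the parental replicates and 0.51 and 0.38 in the SETD2-mutant replicates. GPR55, a lipid receptor, had the lowest unadjusted enrichment p of all GPR genes in parental cells, 0.0017 by RRA, with a change of 0.48 (SE 0.148) and an adjusted p of 0.0987. The 4 proton sensors had medians of 0.039 for parental and −0.081 for SETD2-mutant cells. Between the lines the mean of each was below 0, from −0.25 to −0.11, as it was for 47 of the 76 GPR genes and 3996 of all 7090 genes. The 3 receptors grouped as constitutively active were GPR3, GPR6 and GPR12. They ran from −0.12 to 0.19 in parental and from −0.17 to 0.18 in SETD2-mutant cells. GPR124, the adhesion receptor, stood at 0.061 in parental and −0.0010 in SETD2-mutant cells.

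Receptors outside the GPR numbering and their signalling partners, 166 measured genes in all, had 0 genes called depleted by edgeR and RRA in any of the 3 comparisons. Of 48 aminergic and nucleotide receptors 2 were called enriched in each line, and of 62 peptide and chemokine receptors 2 in parental and 3 in SETD2-mutant cells. Of 16 adenylyl cyclases and protein kinase A subunits, which make and sense cyclic AMP, 1 was enriched in each line, a different gene each time. Of 30 lipid receptors, 7 receptor kinases and arrestins and 3 G protein subunits 0 were enriched. In all, 5 of the 166 were enriched for parental and 6 for SETD2-mutant cells, where 1.11% of all genes were in each line, and 0 between the lines (1.03%). The shares of all genes depleted were 9.90%, 9.04% and 1.28%. Over the 166 genes unadjusted RRA p-values under 0.05 for depletion numbered 0 in parental, 1 in SETD2-mutant cells and 12 between the lines (background 12.1%, 12.0% and 7.53%). Those for enrichment numbered 32, 24 and 4 (9.38%, 10.3% and 6.84%). DESeq2 ranks called 0 depleted throughout and 3, 6 and 0 enriched. Limma on gene means called 26, 46 and 33 depleted (background 31.9%, 38.9% and 24.4%) and 60, 54 and 19 enriched (25.6%, 25.5% and 14.6%). Medians in parental cells were 0.14 for the aminergic, 0.073 for the peptide and 0.073 for the lipid receptors, beside 0.067 for GPR genes.

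The spread of GPR guides between replicates was larger in cells than counting gives. For the library, the difference between the replicates in log2 abundance had an SD of 0.139 over the 760 guides, where Poisson counting alone gives 0.118. For parental cells the SD was 0.449 where counting gives 0.148, and for SETD2-mutant cells 0.565 where counting gives 0.196. Over all gene guides the SDs were 0.124, 0.458 and 0.547, so GPR guides were about as noisy as the rest. A difference of more than 1 log2 unit between replicates occurred in 0 GPR guides of the library, 28 (3.68%) between the parental and 54 (7.11%) between the SETD2-mutant replicates.

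The spread fell with the number of copies in the library. Among the 53 GPR guides with a mean library count from 30 to under 150, the replicate SD was 0.77 for parental and 0.95 for SETD2-mutant cells. It was 0.504 and 0.667 for the 223 guides from 150 to under 300, 0.384 and 0.476 for the 357 guides from 300 to under 600, and 0.302 and 0.346 for the 127 guides at 600 or more. Even in this last group counting alone gives 0.076 and 0.089. Rare and common guides thus both varied more than counting gives, and the rare ones more.

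Between the lines the GPR guides differed by more than their replicates did. The SD of the difference between the line means was 0.682, and the replicate differences within the lines give 0.361 for it. Over all gene guides these values were 0.712 and 0.357. The excess held in every class of library count, with SDs of 0.924 against 0.610 in the lowest and 0.474 against 0.230 in the highest. Each line had 1 transduction, so a difference between the lines and a difference between the transductions cannot be told apart here.

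The edgeR test for single guides measures against 1 replicate spread per guide, shared by all 6 samples with the library pair included. The library replicates differed least, and what including them does to this spread for a comparison between the lines was not tested. With only the groups compared, edgeR and RRA called 142 of all genes between the lines, and 164 with all 6 samples. These fits also differ in the number of samples, and the cause of the difference in calls was not tested. The guide test called many GPR guides. Between the lines it called 97 lower (12.8%, background 12.8%) and 74 higher (9.74%, background 11.5%). In parental against library it called 89 lower (11.7%, background 21.1%) and 146 higher (19.2%, background 18.9%). In SETD2-mutant against library it called 117 lower (15.4%, background 23.7%) and 178 higher (23.4%, background 22.2%). In all, 14 guides (1.84%) passed 1 log2 unit in both replicates of a line while both replicates of the other line lay on the other side of 0, against 0.820% of all guides.

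GPR142, the gene nearest to the median of GPR genes in parental cells, shows how guides with opposite changes average out. Its gene means were −0.047 and 0.15 in the parental replicates and 0.020 and 0.051 in the SETD2-mutant replicates. Guide 3 stood at 0.62 and 0.71 in parental and −0.97 and −0.77 in SETD2-mutant cells. Guide 7 stood at 0.21 and −0.21 in parental and 1.27 and 1.05 in SETD2-mutant cells. For 3 of its guides both SETD2-mutant samples were below both parental samples, and for 4 they were above. Over all guides 29.8% were below and 29.4% above. The gene's difference between the lines was −0.026 (SE 0.26), although edgeR called 4 of its 10 guides between the lines at an adjusted p below 0.05. Over all guides edgeR called 12.8% lower and 11.5% higher between the lines.

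Across the set, the SE over guides was below the spread between GPR genes in each comparison, and furthest below it in SETD2-mutant cells. The root mean square SE was 0.24 in parental cells, 0.28 in SETD2-mutant cells and 0.22 between the lines. The median SE was lower, at 0.195, 0.213 and 0.187. The SDs of the gene means were 0.29, 0.38 and 0.26. Over all genes the root mean square SEs were similar, at 0.26, 0.31 and 0.23, while the SDs against the library were 0.78 and 0.88.

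The 4 GPR guides below −2 in all 4 cell samples came from 4 genes, GPR89B, GPR132 and GPR179 among them. Guide 6 of GPR132, a receptor for protons and lipids on leukocytes, had 439 and 411 counts in the library, 8 and 5 in parental and 0 and 13 in SETD2-mutant cells. Guide 5 of GPR179 had 232 and 213 counts in the library, 9 and 5 in parental and 0 and 0 in SETD2-mutant cells. The guides of GPR132 and GPR179 fell to 13 counts or fewer in every cell sample, and edgeR with RRA called neither gene. What these guides cut was not tested. Guide 4 of GPR158 was also among the 4 lowest by parental change, with 125 and 144 counts in the library, 10 and 32 in parental and 6 and 12 in SETD2-mutant cells.

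At the upper end, the 4 guides with the highest parental change, the GPR20 guide above among them, were chosen for that value. Their height in parental cells therefore follows from the choice. Their excess over SETD2-mutant cells can follow from it too, and how much of it does was not tested. Guide 8 of GPR173, an orphan of the brain, had 220 and 196 counts in the library, 3378 and 2062 in parental and 155 and 312 in SETD2-mutant cells. Guide 7 of GPR4, a proton sensor of blood vessels, had 564 and 502 counts in the library, 1941 and 3575 in parental and 412 and 387 in SETD2-mutant cells. Guide 5 of GPR61 had 299 and 255 counts in the library, 1240 and 1267 in parental and 98 and 78 in SETD2-mutant cells. The gene means in parental cells were 0.20 for GPR173, 0.31 for GPR4 and −0.14 for GPR61.

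Position was examined because cuts in a region present in several copies can slow growth whatever the gene. All 76 symbols were placed on GRCh38 by RefSeq, 73 by current symbol and 3 by synonym, on 19 chromosomes. For each GPR gene, the median of the uncalled other genes that start within 5 Mb was taken, with a median of 18.5 such genes in parental and 19 in SETD2-mutant cells. These medians ran from −0.33 to 0.34 in parental and from −0.46 to 0.38 in SETD2-mutant cells. Across the 76 genes their Pearson correlation with the GPR gene's own change was 0.30 in parental, 0.53 in SETD2-mutant cells and 0.41 between the lines. Genes in the same library share its depth and scaling, GPR genes in the same region share neighbours, and no p is given. Taking the neighbours away lowered the SD over GPR genes from 0.29 to 0.28 in parental, from 0.38 to 0.33 in SETD2-mutant cells and from 0.26 to 0.24 between the lines. The median of GPR genes minus neighbours was 0.011, −0.0057 and −0.048, where the medians of GPR genes alone were 0.067, 0.044 and −0.056. Between the lines it thus changed little.

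The 8 GPR genes on the X chromosome had a median of 0.19 in parental cells, with 8 of 8 above 0, and of 0.30 in SETD2-mutant cells, with 7 of 8 above 0. The 250 uncalled other genes of the X chromosome had medians of 0.199 and 0.20. GPR143, the highest X-linked GPR gene in parental cells, stood at 0.47 where its neighbours had 0.34. The 11 GPR genes on chromosome 1 had medians of −0.14 and −0.16, beside −0.012 and −0.065 for 640 uncalled other genes there. On chromosome 15 from 60 to 90 Mb, 66 uncalled genes had medians of −0.44 and −0.71, and this stretch holds 0 GPR genes. GPR176, the 1 GPR gene on chromosome 15, lies outside it and stood at 0.20 with parental and −0.046 with SETD2-mutant cells. Copy number in these regions was not measured by these data.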

How the data were processed

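The authors deposited whole-number raw counts for each guide. The submitters' processing notes name MAGeCK and hg38 but give neither a role nor a version. Columns were matched to the 6 samples by name. Dummyguide guides stayed out of library sizes and tests, and 56 guides whose library counts averaged under 30 were dropped, which left 71470. EdgeR 4.0.16 (R 4.3.3) tested each guide by quasi-likelihood after TMM scaling, over the 6 samples by group. Guide ranks were combined by robust rank aggregation, rebuilt with a rank share limit of 0.25 and an exact null, for 7090 genes with 3 or more guides, with Benjamini-Hochberg adjustment in each direction. Limma 3.58.1 on gene means and DESeq2 1.42.0 ranks were alternatives. Values per sample are log2 CPM (prior count 2) minus the library mean. The procedure was tested on simulated data. Same-numbered replicates did not deviate together (correlations of −0.0050, −0.0025 and −0.0051). Members, classes, lists and rules were chosen with earlier results of these data known. Named genes are those called, the 3 lowest and 3 highest in each comparison, GPR89B, GPR107, GPR108 and the gene nearest to the parental median. Named guides are the extremes by change and by difference between the lines, and some of these are not reported here. GPR55, GPR155, GPR176, GPR182 and the other genes outside these rules were named after their values were seen.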

Additional observations from a re-analysis of the deposited data

Results flagged for a closer look

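These guides are among the extremes of the difference between the lines among GPR guides. For each, the edgeR test of SETD2-mutant against parental passed with p adjusted over all 71470 guides. The guides were picked by the difference that this test measures, so their low p-values follow in part from the choice. Those lower in SETD2-mutant cells are also among the guides with the highest parental change. The same test called 12.8% of all gene guides lower and 11.5% higher. Values are log2 differences of line means, and in each guide both SETD2-mutant replicates lay on the stated side of both parental replicates. Lower in SETD2-mutant cells were guide 5 of GPR61 at −3.52 (adjusted p = 0.000186 by edgeR), guide 8 of GPR173 at −3.28 (0.000199) and guide 7 of GPR4 at −2.42 (0.00225). Higher were guide 2 of GPR173 at 2.01 (0.00366 by edgeR), guide 2 of GPR158 at 2.23 (0.00291), guide 7 of GPR171 at 2.26 (0.00585) and guide 10 of GPR158 at 2.36 (0.00748). GPR173 holds a guide on each side, and its gene mean between the lines was 0.012. None of these genes was called between the lines by edgeR and RRA.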

How the results depend on the processing

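Limma on gene means called 27 GPR genes between the lines, 34 in parental cells and 40 in SETD2-mutant cells, where edgeR and RRA called 0, 0 and 1. Of all 7090 genes limma called 2764, 4074 and 4566. The 1 call by edgeR and RRA, GPR89B in SETD2-mutant cells, was lost at a rank share limit of 0.1. It was also lost without library replicate 1 and without library replicate 2. Dummyguide totals moved the GPR medians to −0.20, −0.71 and −0.88, and turned GPR135 (−0.27), GPR78 (−0.16) and GPR20 (−0.079) in parental and GPR143 (−0.44), GPR135 (−0.43) and GPR26 (−0.36) in SETD2-mutant cells. The parental median was 0.041 with library totals and 0.098 without the proteins that are not classical receptors, an alternative chosen after seeing the data. The SETD2-mutant median was 0.030 with DESeq2 size factors, 0.032 with library totals and 0.064 without those proteins. Leaving out a replicate gave medians of −0.097 to −0.025 between the lines, 0.055 to 0.085 in parental and 0.0028 to 0.044 in SETD2-mutant cells. With a prior count of 0.5 the replicate SD came to 0.475 for parental and 0.620 for SETD2-mutant guides. With a 2 Mb window the median of GPR genes minus neighbours was 0.00079 in parental, −0.060 in SETD2-mutant cells and −0.060 between the lines. These medians cover 68, 68 and 69 GPR genes. Where no construction shows it, the cause was not tested. With a replicate block, 0, 0 and 1 GPR genes were called, and GPR89B stood at −1.66 (adjusted p = 0.0162 by edgeR and RRA) in SETD2-mutant cells. The correlations above do not pair the samples.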
